A study of Mus musculus with 6 samples.

Results

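The genes described here are 37 genes of the unfolded protein response and the integrated stress response, taken by symbol from a fixed list that leaves out heat shock and Dnaj genes. All 37 were found among the 48526 genes of the count tables, and all 37 passed the filter on low counts that left 17571 genes for testing. RNA was sequenced from primary renal tubular epithelial cells of mice aged 4 to 5 weeks, grown from enzyme-digested kidney cortex with EGF and hydrocortisone. The KO cultures came from Setd2(F/F)Ksp-Cre+ mice and the WT cultures from Setd2(F/F) littermates, 3 libraries each, so both groups carried the floxed alleles and KO alone carried Cre. Ksp-Cre is driven by the promoter of Cdh16, a gene of tubule epithelium. Cells of any type in the culture in which Cre had not acted would keep Setd2. Setd2 encodes the methyltransferase that trimethylates lysine 36 of histone H3.

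When unfolded proteins build up in the endoplasmic reticulum (ER), the membrane sensors encoded by Ern1 (IRE1), Eif2ak3 (PERK) and Atf6 are activated. IRE1 splices the Xbp1 mRNA, ATF6 is cut to release a transcription factor, and PERK phosphorylates the initiation factor eIF2, which lowers most translation while favouring that of the Atf4 mRNA. The kinases encoded by Eif2ak4 (GCN2, amino acid shortage) and Eif2ak1 (HRI, haem and mitochondrial stress) act on eIF2 as well, so ATF4 and its targets respond to more than ER stress. Splicing of Xbp1, cleavage of ATF6, phosphorylation and translation are not measured by read counts per gene.

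Of the 37 genes, 2 were higher in KO (Stc2 and Calr) and 4 were lower (Atf5, Cebpg, Mthfd2 and Edem1) at an adjusted p below 0.05 in edgeR's quasi-likelihood test. That is 16.2% of the 37, beside 21.0% of all tested genes. By direction, 12.0% of all tested genes were higher and 9.08% were lower. The share of stress response genes called was thus no larger than that of genes at large, and the changes were small. None of the 37 reached a log2 fold change of 1 in size, beside 997 of 17571 tested genes. The median log2 fold change of the 37 was -0.08, with 25 negative values (67.6%), beside a median of -0.01 and 51.1% negative values over all tested genes. The 3 KO libraries lay wholly above or wholly below the 3 WT libraries in 10 of the 37 genes, or 27.0%, beside 41.9% of all tested genes. For 33 of the 37, the 95% interval of the fold change stayed within 1.5-fold in either direction, and for 17 it stayed within 1.25-fold. The same shares over all tested genes were not computed. The 4 intervals that reached past 1.5-fold were those of Stc2, Mthfd2, Nupr1 and Cebpb.

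**Figure D1:**
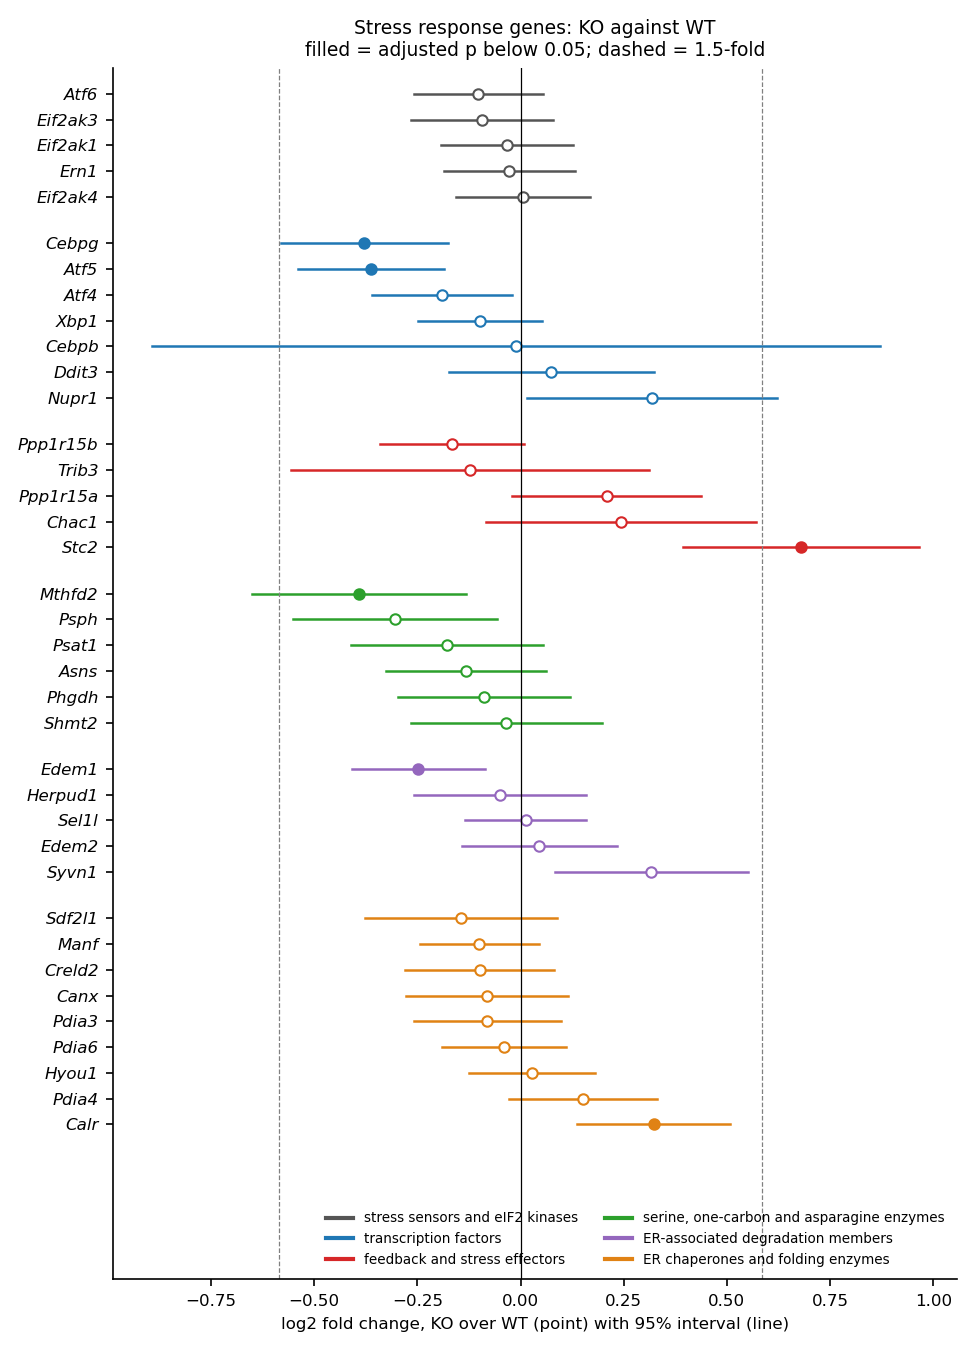
Log2 fold change of KO over WT for each of the 37 genes by role (horizontal axis), with its 95% interval from the edgeR fit. Filled points are the 6 genes with an adjusted p below 0.05, dashed lines mark a 1.5-fold change, and most intervals cross 0.

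Library totals ran from 86078636 to 106974842 counts, so counting error is small for all of these genes except Cebpb. Setd2 itself was at 168 ± 16.3 CPM (counts scaled to library size, with TMM factors) in WT and 158.5 ± 4.86 CPM in KO (mean ± SD over 3 libraries a group, as in every such pair; edgeR adjusted p = 0.481), and counts over the whole gene do not check a deletion of some exons. KO replicates 2 and 3 expressed Xist (507 and 606 CPM) and the other 4 libraries did not (0.348 to 0.683 CPM). Ddx3y, on the Y chromosome, was at 51.0 to 66.9 CPM in those 4 and at 0.084 CPM at most in KO replicates 2 and 3, so sex partly coincides with genotype. All 8 tubular epithelium markers were above 1 CPM, with a summed level of 6452 to 7495 CPM in WT and 7410 to 7484 CPM in KO. Of these 8, Cdh16, whose promoter drives the Cre, and Pax2 were called higher in KO (edgeR adjusted p of 0.0366 and 0.0198). Markers of other cells were lower in level, and their sums were higher in KO. Summed endothelial markers were at 7.96 to 9.87 CPM in WT and 13.97 to 23.7 CPM in KO (4 of 5 genes higher), leukocyte markers at 27.2 to 31.5 and 40.4 to 48.96 CPM (3 of 5), podocyte markers at 91.5 to 94.7 and 148.7 to 179.9 CPM (4 of 5), and fibroblast and pericyte markers at 9.52 to 14.9 and 16.2 to 24.9 CPM (3 of 5). Most of the podocyte sum was Podxl (77.5 to 80.6 CPM in WT, 127 to 153 CPM in KO), while Nphs1 was under 1 CPM in every library and was not called. Plasma cells, which are rich in the secretory machinery, had summed markers of 0.104 CPM at most, with Tnfrsf17 at 0 in every library. The part of these other cells in the results below was not tested. In such bulk samples, fewer cells of a type and less RNA per cell cannot be told apart. The labels do not say that each library came from a different mouse, and the p-values measure only how far these samples vary, which may be technical.

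The ER stress response element, ERSE (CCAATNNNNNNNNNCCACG), is bound by ATF6 and XBP1 together with NF-Y. It was searched on both strands of RefSeq promoter windows of GRCm38.p6, from 250 bases before to 50 after each start. Windows were given for 33 of the 37 genes. The element was found in 5 of the 33, beside 0.137% of 27025 genes with a window. The 5 are shown because they carry the same element, and of them only Calr was called. Calr and Syvn1 both had a log2 fold change of 0.32 (edgeR adjusted p of 0.0209 and 0.0546), so these 2 differ in the call and not in size. Capitals mark the fixed letters, and each is written 5′ to 3′ with CCAAT first.
Calr (chr8:84847070-84847098): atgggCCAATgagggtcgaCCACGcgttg
Canx (chr11:50325795-50325823): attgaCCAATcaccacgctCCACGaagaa
Creld2 (chr15:88819515-88819543): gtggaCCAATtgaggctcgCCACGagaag
Pdia6 (chr12:17266486-17266514): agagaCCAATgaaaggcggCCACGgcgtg
Syvn1 (chr19:6046527-6046555): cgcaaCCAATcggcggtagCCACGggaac

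In Calr and Creld2 the element lies on the strand opposite to transcription. It ends 143 bases before the start in Calr, 126 in Canx, 107 in Creld2, 79 in Pdia6 and 25 in Syvn1. The related element ERSE-II (ATTGGNCCACG) was found in Herpud1 alone among the 33 genes and in 0.0444% of genes with a window. The XBP1 and ATF6 core TGACGTGG was found in none of the 33 and in 0.714% of all. The core of the C/EBP-ATF response element, TGATGNAA, to which ATF4 binds with a C/EBP partner, was also searched on both strands and was found in 5 of the 33 and in 4.51% of all. ERSE and ERSE-II both hold CCACG, and the core TGACGTGG holds its reverse complement. The 5 genes with this core follow, with the fixed letters in capitals, because they are the motif-bearing candidates for ATF4 and none of them was called. In Trib3 the match lies after the start.
Asns (chr6:7693220-7693237): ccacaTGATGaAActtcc
Chac1 (chr2:119351044-119351061): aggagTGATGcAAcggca
Herpud1 (chr8:94386312-94386329): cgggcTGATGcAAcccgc
Nupr1 (chr7:126625568-126625585): ctgtcTGATGcAAtctgg
Trib3 (chr2:152344034-152344051): ccggcTGATGtAAacctg

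Among the 6 called genes, only Calr held any of the motifs searched in its window. The 250 bases before the start of Calr (minus strand, chr8:84846932-84847181) and of Syvn1 (plus strand, chr19:6046326-6046575) are printed in the direction of transcription, with the ERSE letters in capitals. In Calr the element therefore reads as its reverse complement. They are given whole because Calr and Syvn1 are the ERSE genes whose KO libraries all lay above WT. In Canx, Creld2 and Pdia6 the groups overlapped, with log2 fold changes of -0.08, -0.10 and -0.04. Of all tested genes, 41.9% had KO libraries wholly above or wholly below WT. A match describes letters in a window and not binding.
Calr: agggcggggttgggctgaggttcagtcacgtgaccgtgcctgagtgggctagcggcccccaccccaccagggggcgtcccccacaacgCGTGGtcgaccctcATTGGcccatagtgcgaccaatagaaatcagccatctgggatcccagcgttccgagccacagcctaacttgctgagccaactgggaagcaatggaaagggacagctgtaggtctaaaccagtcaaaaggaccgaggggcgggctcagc
Syvn1: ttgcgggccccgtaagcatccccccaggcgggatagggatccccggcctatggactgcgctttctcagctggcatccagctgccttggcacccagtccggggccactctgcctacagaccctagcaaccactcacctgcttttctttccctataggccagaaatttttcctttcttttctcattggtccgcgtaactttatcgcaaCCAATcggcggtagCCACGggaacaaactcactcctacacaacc

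The mRNAs of the stress sensors and eIF2 kinases were at nearly the same level in both genotypes. None of the 5 was called by edgeR, beside 21.0% of all tested genes. In that test 0 of the 5 had an unadjusted p below 0.05, beside 6377 of 17571 tested genes. The log2 fold changes of the 5 ran from -0.10 to 0.01. Eif2ak3 (PERK; ENSMUSG00000031668, mm10 chromosome 6, 70844515 to 70905245, plus strand), the most abundant of them per exon length, was at 104.2, 102.9 and 101.7 CPM in WT replicates 1 to 3 and at 100.8, 102.7 and 86.0 CPM in KO replicates 1 to 3. KO replicate 3 was the low library, and the groups overlapped. Its log2 fold change was -0.09 ± 0.08 (SE; edgeR adjusted p = 0.422). Eif2ak4, the kinase that senses uncharged tRNA, was at 40.2 ± 1.23 CPM in WT and 40.3 ± 1.05 in KO. Ern1 was at 44.2 ± 0.851 and 43.4 ± 1.26 CPM. The haem-regulated kinase gene Eif2ak1 stood at 52.4 ± 1.98 and 51.3 ± 1.89 CPM. Atf6 was at 103.7 ± 6.24 and 96.6 ± 3.12 CPM. The 95% interval of the log2 fold change was narrow for each, from -0.16 to 0.17 for Eif2ak4 and from -0.27 to 0.08 for Eif2ak3. All 5 intervals lay within a 1.25-fold change.

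Among 7 transcription factor genes, 2 fell and 5 did not pass the test (28.6% called, beside 21.0% of all tested genes). Atf5 encodes a bZIP factor that, like ATF4, is translated when eIF2 is phosphorylated. Atf5 (ENSMUSG00000038539, chromosome 7, 44812256 to 44816658, minus strand) was at 41.6, 39.9 and 39.9 CPM in WT replicates 1 to 3 and at 29.3, 33.5 and 31.7 CPM in KO replicates 1 to 3. The WT libraries were tightly grouped and every KO library lay below them. It fell by 0.36 ± 0.08 (SE) on the log2 scale, with an edgeR adjusted p of 0.00993. Without KO replicate 1 the adjusted p was 0.07.

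Cebpg encodes C/EBP gamma, a dimer partner of ATF4. Cebpg (ENSMUSG00000056216, chromosome 7, 35046422 to 35056573, minus strand) was at 71.7, 62.1 and 62.6 CPM in WT replicates 1 to 3 and at 44.9, 54.4 and 51.7 CPM in KO replicates 1 to 3. Again all KO libraries were below all WT libraries. The decrease was 0.769-fold (log2 fold change -0.38 ± 0.09, edgeR adjusted p = 0.0153), and without KO replicate 1 the adjusted p was 0.0963. All WT libraries and KO replicate 1 were Xist-negative. With Xist status as a term in the model, the genotype change therefore rests on KO replicate 1 against WT. In that fit Atf5 and Cebpg were called (edgeR adjusted p of 0.0434 and 0.0329), and KO replicate 1 was the lowest KO library for both. Their log2 fold changes in that fit were -0.47 and -0.54, larger in size than with genotype alone. Calr (log2 fold change 0.33, adjusted p = 0.152), Edem1 (-0.28, 0.182) and Mthfd2 (-0.50, 0.132) lost their calls there with changes no smaller than before, while Stc2 lost its call (0.145) with a smaller change. With KO replicates 2 and 3 left out, the log2 fold changes were nearly those of the model with Xist status. This follows from the design, because both fits compare KO replicate 1 with WT, so neither checks the other.

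Atf4 (ENSMUSG00000042406, chromosome 15, 80255184 to 80257541, plus strand), the most abundant factor gene, was at 341, 359 and 375 CPM in WT replicates 1 to 3 and at 324, 327 and 291 CPM in KO replicates 1 to 3. All KO values lay below all WT values, but the difference did not pass the test (log2 fold change -0.19 ± 0.08, edgeR adjusted p = 0.101). Xbp1, the substrate of IRE1, was at 92.0 ± 1.79 CPM in WT and 85.98 ± 4.13 in KO (edgeR adjusted p = 0.326). Counts per gene add the spliced and unspliced forms of Xbp1. Ddit3, which encodes the pro-apoptotic factor CHOP, was low in every library, from 5.90 to 6.02 CPM in WT and from 5.60 to 6.95 CPM in KO.

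Nupr1 encodes a small stress-induced chromatin protein. It was at 80.1, 54.2 and 56.5 CPM in WT replicates 1 to 3 and at 68.8, 83.8 and 85.2 CPM in KO replicates 1 to 3. The groups overlapped because WT replicate 1 lay above KO replicate 1 (log2 fold change 0.32 ± 0.14, edgeR adjusted p = 0.12). Without WT replicate 1 the log2 fold change was 0.53 with an adjusted p of 0.00251. In the model with Xist status it was 0.11 with an adjusted p of 0.756.

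Cebpb, which encodes C/EBP beta, had only 30 to 91 reads per library and was listed at 0.543 ± 0.346 CPM in WT and 0.536 ± 0.192 in KO. In the annotation, 312 of its 1504 exonic bases overlap Tmem189 on the other strand. Whether such reads were kept and whether strand was used is not given in the sources used here. Its level is therefore uncertain. Across the 37 genes, 15 had some exonic overlap with another annotated gene. In Atf5 the overlap is 82 bases with Nup62 and Il4i1, and in Cebpg it is 73 bases with Gm44836.

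**Figure D2:**
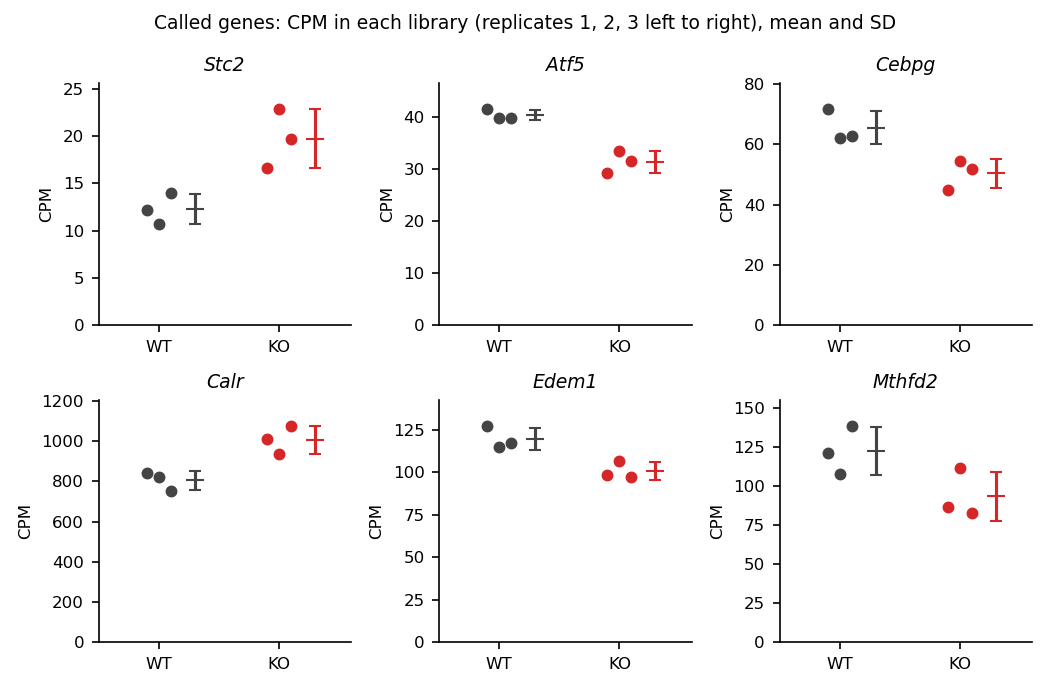
CPM (vertical axis, from 0) of the 6 called genes in each of the 3 WT and 3 KO libraries, points ordered by replicate number, with mean and SD beside them. The groups are separate for Stc2, Atf5, Cebpg, Calr and Edem1, and for Mthfd2 KO replicate 2 lies among the WT values.

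Of 5 genes of feedback on eIF2 and of stress effectors, 1 rose and 4 did not pass the test (20.0% called, beside 21.0% of all tested genes). Their spread within WT differed widely, with a coefficient of variation from 3.83% for Ppp1r15a to 31.9% for Trib3. Stc2 encodes stanniocalcin 2, a secreted glycoprotein induced by ER stress. Stc2 (ENSMUSG00000020303, chromosome 11, 31357307 to 31370074, minus strand) was at 12.2, 10.8 and 14.0 CPM in WT replicates 1 to 3 and at 16.6, 22.9 and 19.7 CPM in KO replicates 1 to 3. Every KO library lay above every WT library, and the Xist-positive KO replicates 2 and 3 were the highest. It rose 1.60-fold, from 12.3 ± 1.61 to 19.7 ± 3.13 CPM (log2 fold change 0.68 ± 0.13, edgeR adjusted p = 0.0047), the largest change among the 37. The call held in each of the 6 fits that left out 1 library (adjusted p at most 0.0244). In the model with Xist status its log2 fold change was 0.43.

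Ppp1r15a (GADD34) and Ppp1r15b (CReP) encode the regulatory subunits that direct a phosphatase to eIF2, GADD34 being the inducible one. Ppp1r15b (ENSMUSG00000046062, chromosome 1, 133131143 to 133139783, plus strand), the most abundant effector per exon length, was at 158, 139.9 and 143 CPM in WT replicates 1 to 3 and at 136, 137 and 120.4 CPM in KO replicates 1 to 3. The KO values were all below the WT values without passing the test (log2 fold change -0.17 ± 0.08, edgeR adjusted p = 0.157). Ppp1r15a was at 29.4, 30.3 and 31.7 CPM in WT and at 40.5, 34.8 and 30.2 CPM in KO (edgeR adjusted p = 0.175). KO replicate 1 was the high library, and KO replicate 3 lay within WT.

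Trib3 encodes a pseudokinase that restrains ATF4 and CHOP, and Chac1 a glutathione-degrading enzyme. Both are sensitive reporters of ATF4 activity. Trib3 was at 15.9, 19.4 and 29.2 CPM in WT replicates 1 to 3 and at 16.9, 24.4 and 17.9 CPM in KO replicates 1 to 3 (edgeR adjusted p = 0.69). Chac1 was at 21.2, 25.7 and 31.9 CPM in WT and at 29.2, 37.1 and 27.0 CPM in KO (edgeR adjusted p = 0.264). For Trib3 the highest WT library was 1.83 times the lowest, a spread wider than the difference between genotype means. WT replicate 3 and KO replicate 2 were the high libraries of their groups.

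The enzymes that make serine, one-carbon units and asparagine are targets of ATF4. All 6 had negative log2 fold changes, from -0.39 to -0.03, beside 51.1% of all tested genes. Only Mthfd2 was called (16.7%, beside 21.0% of all tested genes). Mthfd2 encodes the mitochondrial methylenetetrahydrofolate dehydrogenase. Mthfd2 (ENSMUSG00000005667, chromosome 6, 83305691 to 83325908, minus strand) was at 121, 107.9 and 138 CPM in WT replicates 1 to 3 and at 86.6, 111.2 and 82.4 CPM in KO replicates 1 to 3. KO replicate 2 lay above WT replicate 2, so the groups overlapped. The log2 fold change was -0.39 ± 0.12 with an edgeR adjusted p of 0.0377. The call was lost without WT replicate 3 (adjusted p = 0.0872), without KO replicate 1 (0.173), without KO replicate 3 (0.154) and when only genes averaging 1 CPM or more were tested (0.0579).

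Phgdh, the first enzyme of serine synthesis (ENSMUSG00000053398, chromosome 3, 98313170 to 98339990, minus strand), was the most abundant of the 6 per exon length. It was at 257, 274 and 317 CPM in WT replicates 1 to 3 and at 256, 293 and 249.1 CPM in KO replicates 1 to 3 (log2 fold change -0.09 ± 0.09, edgeR adjusted p = 0.531). The groups overlapped widely. The next enzymes of that path were Psat1, at 226.7 ± 21.6 CPM in WT and 200.3 ± 28.4 in KO, and Psph, at 27.7 ± 4.74 and 22.4 ± 0.833 CPM. For Psph all KO libraries lay below all WT libraries (log2 fold change -0.30 ± 0.11, edgeR adjusted p = 0.0765). Asns, asparagine synthetase, was at 178 ± 17.7 and 162 ± 11.9 CPM. Shmt2, which moves a carbon from serine to folate in mitochondria, was at 159 ± 25.0 and 155 ± 9.91 CPM. The culture medium held non-essential amino acids and glutamine in both groups.

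These 6 enzymes shared a pattern across libraries that was seen after their values were examined. In all 6, WT replicate 3 was the highest WT library and KO replicate 2 the highest KO library. Among all tested genes, WT replicate 3 was the highest WT library in 35.6%, KO replicate 2 the highest KO library in 34.3%, and both held in 14.5%. The mean of the 6 genes on the log2 scale, relative to the WT mean, was -0.07, -0.11 and 0.18 in WT replicates 1 to 3 and -0.21, -0.04 and -0.30 in KO replicates 1 to 3. In the list of other amino acid synthesis and uptake targets of ATF4, both held in 10 of 17 genes, and in cytosolic aminoacyl-tRNA synthetases and Xpot in 7 of 13. It was not limited to targets of ATF4: both held in 5 of 10 genes of the ATF6 family, site proteases and IRE1 partners, in 6 of 16 other genes of ER-associated degradation, in 5 of 15 other folding enzymes and in 35.1% of the 37 genes. In the 9 ER chaperone genes both held in 2, and in the 5 sensor and kinase genes in 0. With WT replicate 3 and KO replicate 2 left out, Mthfd2 had a log2 fold change of -0.44. These libraries were chosen on the values of the 6 enzymes, and KO replicate 2 was the library in which Mthfd2 overlapped WT. A p-value from that fit would therefore not be independent of the choice.

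**Figure D3:**
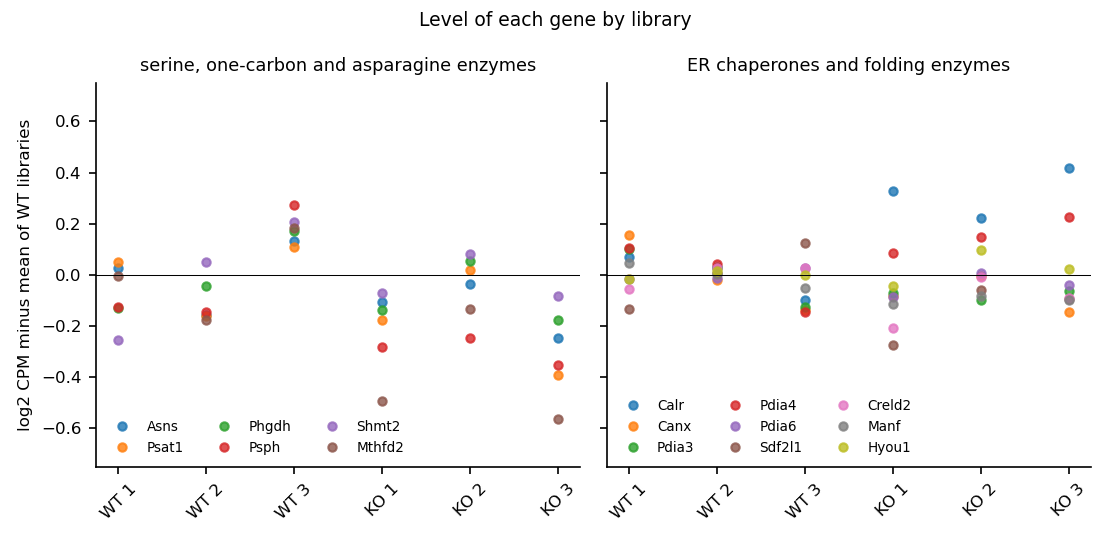
Log2 CPM of each gene minus its mean over the WT libraries (vertical axis) in each library, for the 6 serine, one-carbon and asparagine enzymes (left) and the 9 ER chaperones and folding enzymes (right). The 6 enzymes are highest in WT replicate 3 and KO replicate 2 within their groups, and on the right Calr stands above the other genes in the KO libraries.

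ER-associated degradation sends misfolded proteins back to the cytosol. Of its 5 genes, Edem1 fell and 4 did not pass the test (20.0% called, beside 21.0% of all tested genes). Edem1 encodes a protein that trims mannose from misfolded glycoproteins. Edem1 (ENSMUSG00000030104, chromosome 6, 108828641 to 108859356, plus strand) was at 127, 114.7 and 117.6 CPM in WT replicates 1 to 3 and at 98.6, 107.0 and 97.2 CPM in KO replicates 1 to 3. The groups did not overlap (log2 fold change -0.25 ± 0.07, edgeR adjusted p = 0.0341). The call lay close to the threshold: of the 6 fits without 1 library it held only in that without WT replicate 3 (adjusted p from 0.0358 to 0.167), and was lost with upper-quartile scaling (0.0564).

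Syvn1 encodes HRD1, the ubiquitin ligase of this path. It was at 34.0, 46.9 and 41.2 CPM in WT replicates 1 to 3 and at 49.9, 49.6 and 52.7 CPM in KO replicates 1 to 3. The KO values all exceeded the WT values, and WT replicate 1 was low (log2 fold change 0.32 ± 0.11, edgeR adjusted p = 0.0546). The gene missed the threshold here and passed it in 8 of 17 other fits, among them DESeq2 (adjusted p = 0.0215) and limma-voom (0.0491). Of the 6 fits without 1 library it passed only in that without WT replicate 2 (log2 fold changes from 0.22 to 0.43, adjusted p from 0.0255 to 0.166). With Xist status in the model, where genotype rests on KO replicate 1 against WT, its edgeR adjusted p was 0.3. Its partner Sel1l was at 124 ± 4.57 CPM in WT and 125 ± 3.52 in KO. Herpud1 (ENSMUSG00000031770, chromosome 8, 94386438 to 94395377, plus strand), a strongly induced scaffold of the HRD1 complex and the most abundant of the 5 per exon length, was at 43.4, 47.6 and 48.7 CPM in WT and at 44.2, 50.6 and 40.2 CPM in KO. Its groups overlapped fully (log2 fold change -0.05 ± 0.10, edgeR adjusted p = 0.744). Edem2 was at 25.7 ± 2.15 and 26.5 ± 0.411 CPM.

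Among 9 ER chaperones and folding enzymes, Calr rose and 8 did not pass the test (11.1% called, beside 21.0% of all tested genes). Calr encodes calreticulin, a calcium-binding lectin chaperone of the ER lumen. Calr (ENSMUSG00000003814, chromosome 8, 84841850 to 84846934, minus strand) was at 844, 821 and 749.9 CPM in WT replicates 1 to 3 and at 1008, 937 and 1074 CPM in KO replicates 1 to 3. The KO values all exceeded the WT values. The rise was 1.25-fold, from 805 ± 48.9 to 1006 ± 68.6 CPM (log2 fold change 0.32 ± 0.08, edgeR adjusted p = 0.0209). The call was lost without WT replicate 2 (adjusted p = 0.0554), without KO replicate 1 (0.0601) and without KO replicate 3 (0.0792), while the log2 fold change stayed between 0.27 and 0.37.

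The other chaperone genes did not pass the test. Canx, the membrane-bound counterpart of calreticulin, was at 767 ± 79.9 CPM in WT and 725 ± 35.1 in KO. Pdia3 (ERp57), the disulfide isomerase that works with both lectins, was at 909 ± 71.9 and 859.7 ± 11.2 CPM, with a 95% interval of the log2 fold change from -0.26 to 0.10. The disulfide isomerase gene Pdia4 was at 206 ± 18.3 and 229 ± 11.3 CPM (edgeR adjusted p = 0.21), and Pdia6 at 339 ± 5.88 and 329.9 ± 10.7 CPM. Hyou1, a nucleotide exchange factor of the ER, was at 246 ± 2.72 and 251 ± 12.1 CPM. Among genes known for strong induction by ER stress, Sdf2l1 was at 10.8 ± 0.973 and 9.77 ± 0.765 CPM, Creld2 at 35.0 ± 1.13 and 32.7 ± 2.25 CPM, and Manf at 110.1 ± 3.78 and 102.8 ± 1.15 CPM. Log2 fold changes of these 8 genes ran from -0.15 to 0.15. The ER heat shock genes, which are not among the 37, did not pass the test either. Hspa5 (BiP) was at 824 ± 37.5 CPM in WT and 771 ± 34.7 in KO (edgeR adjusted p = 0.4). Of the 6 heat shock and Dnaj genes listed edgeR called 0, beside 21.0% of all tested genes. In the same test 2 of the 6 had an unadjusted p below 0.05, beside 6377 of 17571 tested genes.

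Per exon length, the lumenal and membrane chaperones led. Calr had the highest mean over the 6 libraries, 314 RPKM (CPM per kilobase of exon), followed by Pdia3 at 282, Canx at 159, Atf4 at 142.5 and Phgdh at 110.3 RPKM. In WT the order of the first 2 was reversed, with Pdia3 at 289.6 and Calr at 279 RPKM, and in KO Calr stood at 349 and Pdia3 at 274 RPKM. Pdia4 at 90.6 and Pdia6 at 89.3 RPKM did not differ beyond their spread. The stress-induced factor gene Ddit3 (3.57 RPKM), Stc2 (3.10 RPKM) and Cebpb (0.359 RPKM) were the lowest.

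**Figure D4:**
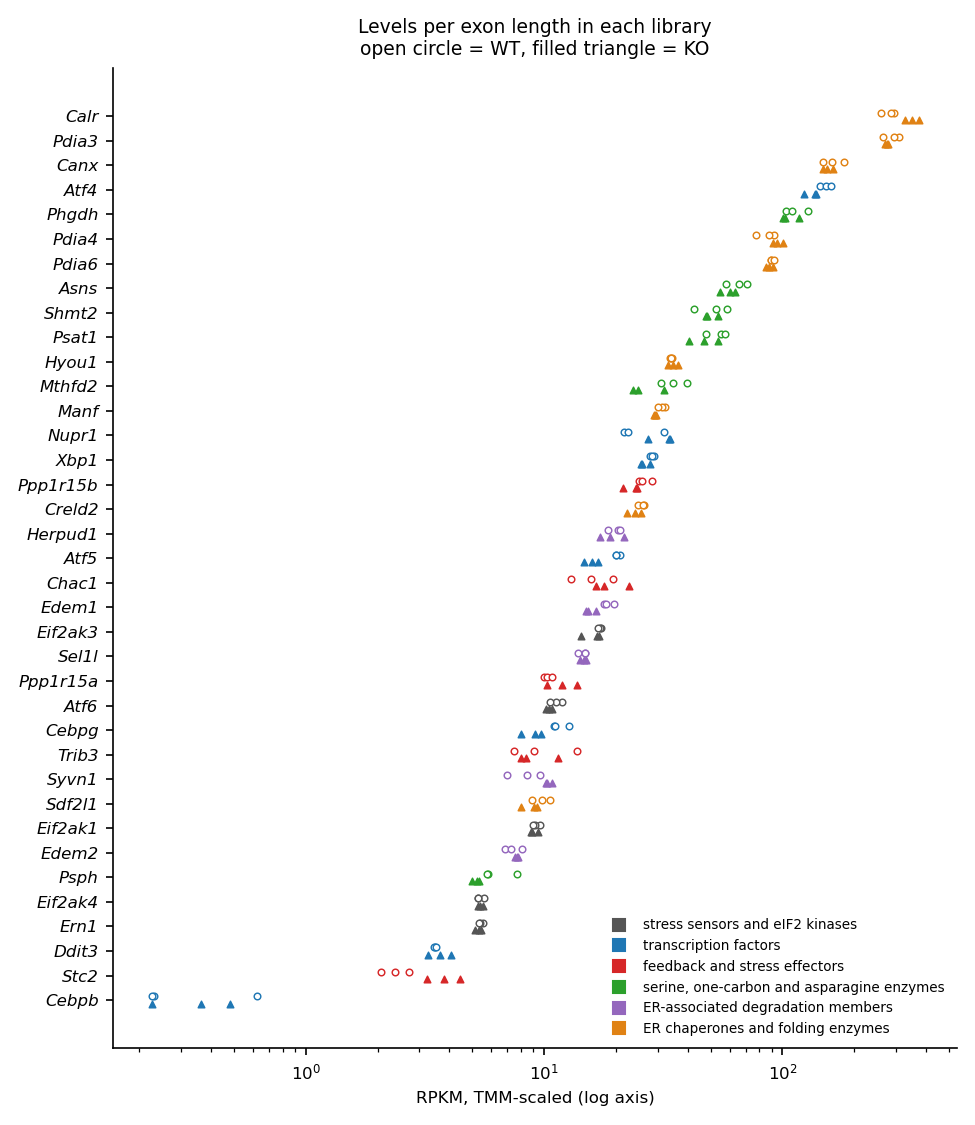
TMM-scaled RPKM (log axis) of each of the 37 genes in the 3 WT (open circles) and 3 KO (filled triangles) libraries, ordered by the mean and coloured by role. Levels span from 0.359 RPKM for Cebpb to 314 RPKM for Calr, a range far wider than any difference between genotypes.

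The rest of the pathway was read from 9 lists of 127 other genes, of which 10 were higher, 10 lower and 107 did not pass the test. That is 15.7% called, beside 21.0% of all tested genes, with a median log2 fold change of -0.07. These calls depended on the model: with Xist status as a term 2 of the 127 genes were higher and 0 lower. Genotype in that fit rests on KO replicate 1 against WT. Every decrease named from these lists therefore lost its call there. In the list of the ATF6 family, site proteases and IRE1 partners, 3 of 10 rose and 1 fell (40.0% called, beside 21.0% of all tested genes). Creb3l2, an ER-anchored factor of the ATF6 type, was at 74.3, 74.6 and 72.2 CPM in WT replicates 1 to 3 and at 90.4, 99.5 and 106.8 CPM in KO replicates 1 to 3 (edgeR adjusted p = 0.00346). Again the groups did not overlap. Its relative Creb3l1 rose from 3.27 ± 0.887 to 6.25 ± 1.60 CPM (edgeR adjusted p = 0.0133). Wfs1, the wolframin gene, rose from 69.3 ± 5.49 to 91.97 ± 5.03 CPM (edgeR adjusted p = 0.00533). The gene that fell was Mbtps1, the site-1 protease that cuts ATF6, from 141 ± 4.38 to 120.5 ± 2.97 CPM (edgeR adjusted p = 0.0306).

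In the list of 22 genes of ER translocation, signal cleavage and N-glycan transfer, 4 fell and none rose. That is 18.2% called, beside 21.0% of all tested genes called in either direction and 9.08% called lower. The 4 were Ostc, an oligosaccharyltransferase subunit, and Spcs1, Spcs2 and Spcs3, all subunits of signal peptidase. Spcs1 was at 78.4, 73.4 and 90.7 CPM in WT replicates 1 to 3 and at 60.96, 64.3 and 57.8 CPM in KO replicates 1 to 3, with no overlap (log2 fold change -0.41 ± 0.09, edgeR adjusted p = 0.00914). Spcs2 fell from 120.5 ± 2.68 to 101.9 ± 4.88 CPM and Ostc from 79.0 ± 3.80 to 65.3 ± 5.30 CPM. Of the 16 other genes of ER-associated degradation, 3 rose and 2 fell (31.2% called, beside 21.0% of all tested genes). Derl2, a channel protein of the path, fell from 53.4 ± 1.43 to 41.4 ± 1.53 CPM (edgeR adjusted p = 0.00611), while Aup1 rose from 82.1 ± 5.78 to 103.3 ± 4.05 CPM (edgeR adjusted p = 0.0104). Derl3 rose at a very low level, from 0.196 ± 0.092 to 0.569 ± 0.149 CPM. Ganab, glucosidase II alpha, was the only gene called among 15 other folding enzymes (6.67%), and it fell (edgeR adjusted p = 0.0335).

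Among 17 genes of eIF2, its exchange factor and partners, Eif2s3x and Eif2ak2 rose and none fell (11.8% called, beside 21.0% of all tested genes). Eif2s3x, the X-linked gamma subunit of eIF2, was at 110.6, 105.9 and 103.0 CPM in WT replicates 1 to 3 and at 114.0, 150.5 and 137.6 CPM in KO replicates 1 to 3 (edgeR adjusted p = 0.0302). The Xist-positive KO replicates 2 and 3 were the high ones, and KO replicate 1 was close to WT. Eif2ak2, the double-stranded RNA kinase PKR, rose from 66.0 ± 3.52 to 78.7 ± 6.28 CPM (edgeR adjusted p = 0.0446). Of 17 other amino acid synthesis and uptake targets of ATF4, none was called by edgeR, beside 21.0% of all tested genes. In that test 2 of the 17 had an unadjusted p below 0.05, beside 6377 of 17571 tested genes. The most abundant per length, the transporter gene Slc38a2, was at 628 ± 84.4 CPM in WT and 533 ± 73.96 in KO (edgeR adjusted p = 0.171). Of 13 genes of aminoacyl-tRNA synthetases and tRNA export, Lars alone was called (7.69%). It fell from 224 ± 16.6 to 177 ± 14.0 CPM (edgeR adjusted p = 0.0173). Of 11 stress effectors, Jdp2 and Bcl2l11 rose and Atf3 fell (27.3% called), with log2 fold changes of 0.38 ± 0.10, 0.30 ± 0.08 and -0.36 ± 0.11.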

How the data were processed

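The authors deposited 1 table of raw counts by Ensembl gene ID per library; Trimmomatic 0.38, STAR 2.7.1a, HTSeq 0.11.2 and mm10 are named per the submitters' processing notes, while annotation release, strand setting and handling of multi-mapping reads were not given in the labels or headers. Symbols, coordinates and union exon lengths came from GENCODE M21 (GRCm38), and promoter windows from RefSeq (GRCm38.p6). Groups and replicate numbers came from the titles. Counts were filtered with filterByExpr, scaled with TMM and tested with edgeR 4.0.16 (R 4.3.3) over 17571 genes, with genotype as the term and Benjamini-Hochberg adjustment at 0.05. SE is the absolute log2 fold change over the root of F, and 95% intervals use it with the model's degrees of freedom. DESeq2 1.42.0, limma-voom 3.58.1, other scalings, filters and left-out libraries were alternatives. The test was tried on simulated counts with known changes in genes drawn from all those tested. It recovered 6% of 1.25-fold, 54% of 1.5-fold and 70% of 2-fold changes. Genes that did not pass the test may therefore still differ by small amounts. Every listed gene is counted. Called genes and the most abundant of each role get values per library, and up to 3 called genes, or the most abundant, come from each other list. The genes and lists were chosen with earlier results of these data known. Protein sequences were not used here. Figures used matplotlib 3.10.9.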

Additional observations from a re-analysis of the deposited data

How the results depend on the processing

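The counts of genes called changed with single libraries and with Xist status in the model. Of the 37 genes, 2 were higher and 4 lower, and when Xist status entered as a term these became 0 and 2. In that fit, as with the Xist-positive libraries left out, the genotype change is that of KO replicate 1 against WT. The 2 fits are therefore not separate checks, and neither adjusts for sex across the 3 KO libraries. Both have fewer degrees of freedom, and of the 6 called genes only Stc2 had a smaller log2 fold change in them (0.43 in each). Those of Atf5, Cebpg, Calr, Edem1 and Mthfd2 were as large or larger in size. The cause of the lost calls was not tested. In the same 2 fits the 127 pathway genes gave 2 and 1 higher and 0 and 0 lower, and all genes 1163 and 907 calls. Leaving out 1 library at a time, or WT replicate 3 and KO replicate 2 together (chosen after seeing the data), the 37 genes gave 1 to 3 higher and 0 to 4 lower, the pathway genes 3 to 10 higher and 1 to 14 lower, and all genes 1683 to 3766 calls. Without KO replicate 1 only Stc2 of the 6 called genes was still called. Without a filter beyond a total count of 1, 4 of the 37 were higher and 18 pathway genes lower, and with a mean CPM of at least 1, 6 pathway genes were lower. With the replicate block, all 6 calls held, Syvn1 was added (3 higher, 4 lower), and all genes gave 3594 calls. Same-numbered libraries had correlations of deviations of 0.129, -0.301 and 0.0844, beside -0.233 to 0.255 for the other pairs. With so few libraries these values cannot show whether the numbers pair the samples, and the labels do not say. No called gene changed sign in any of 17 fits. In 11 uncalled genes the sign changed, all with a log2 fold change of at most 0.122 in size in the reported fit. In the fits with the changed sign, the largest was 0.649, for Cebpb without WT replicate 3.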
